A study of Mus musculus with 18 samples.

Results

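Interleukins are secreted signals between immune, stromal and muscle cells, and the genes described here are the interleukin ligands and their receptor chains. They were taken by symbol: protein-coding autosomal mouse genes of the GRCm38.p6 table whose symbol is Il followed by a digit. That gave 78 of 20665 autosomal protein-coding genes, of which 39 encode ligands (receptor antagonists of the same families included), 36 encode receptor chains (accessory chains and decoys included) and 3 encode other proteins (the binding protein Il18bp and the amino acid oxidases Il4i1 and Il4i1b). The symbol rule left out 5 genes on the X chromosome, and it does not reach interleukins that carry another kind of name.

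DNA methylation was measured by MeDIP-seq, which sequences the DNA fragments that a 5-methylcytosine antibody captures, in 18 libraries of myocardial tissue from male C57BL/6JR mice aged 12 weeks. In 5 groups of 3 mice the left anterior descending coronary artery was tied to cause myocardial infarction (MI), and tissue was taken after 10 min, or after 1, 6, 24 or 72 h. The sham group of 3 mice had the operation and a suture, but no tie. All groups shared the sodium pentobarbital anaesthesia, and all were killed under isoflurane. The labels name cardiomyocytes as the cell type and describe no isolation of cells. A peak of any library was present in the windows of 10 of 10 cardiomyocyte and 6 of 10 leukocyte marker genes. The same held for 4 of 4 endothelial and 4 of 4 fibroblast marker genes, against 78.1% of all autosomal protein-coding genes. Windows differ in length, with a median of 22352 bases for cardiomyocyte markers, 12815 for leukocyte markers and 21491 for all genes. A peak shows where methylated DNA piles up, not expression, so these lists do not show which cells gave the DNA. In bulk tissue, a change in the cells present and a change of methylation within a cell cannot be told apart. The 18 lists held 34255 to 60653 peaks and covered 42.7 to 63.0 Mb, no read counts were used, and the depth of each library is unknown.

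Interleukin ligands are mostly small secreted proteins that act on receptors built from a ligand-binding chain and a shared signalling chain. Receptors of the Il1 and Il18 families signal through Myd88 and Irak kinases, and most others through Jak kinases and Stat factors. In the infarcted heart, Il1b and Il6 are known as early inflammatory signals, Il10 as a restraining one, and Il33 with its receptor Il1rl1 as a pair active between stromal and muscle cells.

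Promoter sequence is shown first, because methylation over a promoter is the case most often tied to gene silencing. The promoter table (RefSeq, GRCm38.p6) held 76 windows, from 250 bases before to 50 after a transcription start, for 61 of the 78 genes. A CpG, the letters CG, reads the same on both strands and is the main site of methylation. At least 1 CpG was present in 98.7% of the 76 windows and in 95.6% of the 20085 windows of all genes. The 6 stretches below are the 250 bases before the start, 5′ to 3′ on the strand of the gene, with each CpG in capitals. Il12b was the interleukin promoter most often under a peak, Il22ra1 was under one at 72 h alone, and Il6, Il1b, Il6st and Il9r were under none. Il6 and Il1b are early cytokines, and Il6st is the CpG-dense promoter of a shared chain. Il9r is the only interleukin gene called in the test of single genes below, for a peak elsewhere in its body. That call moved with the settings. They lie on GRCm38.p6 at chr11:44399813-44400062 (plus strand, Il12b), chr4:135727909-135728158 (plus, Il22ra1), chr5:30012864-30013113 (plus, Il6), chr2:129371140-129371389 (minus, Il1b), chr13:112463820-112464069 (plus, Il6st) and chr11:32200280-32200529 (minus, Il9r).
Il12b: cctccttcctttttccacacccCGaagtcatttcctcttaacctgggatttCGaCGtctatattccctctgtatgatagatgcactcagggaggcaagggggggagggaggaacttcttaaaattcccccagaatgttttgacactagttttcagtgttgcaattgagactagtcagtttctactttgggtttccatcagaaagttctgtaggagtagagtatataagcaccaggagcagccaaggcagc
Il22ra1: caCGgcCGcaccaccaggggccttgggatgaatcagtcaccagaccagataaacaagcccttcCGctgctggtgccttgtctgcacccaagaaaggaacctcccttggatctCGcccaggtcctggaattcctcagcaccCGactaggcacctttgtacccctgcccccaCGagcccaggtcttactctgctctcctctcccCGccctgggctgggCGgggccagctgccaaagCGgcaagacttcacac
Il6: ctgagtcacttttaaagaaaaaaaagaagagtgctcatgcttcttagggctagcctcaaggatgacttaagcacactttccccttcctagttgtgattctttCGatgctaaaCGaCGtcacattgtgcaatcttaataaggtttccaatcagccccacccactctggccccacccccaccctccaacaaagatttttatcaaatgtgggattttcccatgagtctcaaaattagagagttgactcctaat
Il1b: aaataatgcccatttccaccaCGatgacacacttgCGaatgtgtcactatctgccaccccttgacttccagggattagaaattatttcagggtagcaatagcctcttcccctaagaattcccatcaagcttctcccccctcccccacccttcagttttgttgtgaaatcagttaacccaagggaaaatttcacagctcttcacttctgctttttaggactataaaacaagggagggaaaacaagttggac
Il6st: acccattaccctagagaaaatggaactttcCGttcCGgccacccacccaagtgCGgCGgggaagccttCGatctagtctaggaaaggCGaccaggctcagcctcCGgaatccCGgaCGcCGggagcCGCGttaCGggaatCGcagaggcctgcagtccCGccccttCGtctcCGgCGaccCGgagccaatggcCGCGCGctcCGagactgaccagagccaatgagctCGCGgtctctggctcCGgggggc
Il9r: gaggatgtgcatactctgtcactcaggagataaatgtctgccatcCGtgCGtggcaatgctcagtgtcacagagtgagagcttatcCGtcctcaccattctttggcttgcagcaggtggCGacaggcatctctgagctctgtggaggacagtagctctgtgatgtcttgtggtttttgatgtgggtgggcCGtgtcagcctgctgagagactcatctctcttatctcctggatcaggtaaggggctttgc

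Few interleukin promoters were under a peak. A peak of any library touched 5 of the 76 windows (6.58%), close to the 6.04% of windows of all genes. None of the 76 was under a peak in 9 or more libraries, against 1.27% of all windows. Il12b, the shared subunit of Il12 and Il23, had a promoter peak in 6 libraries: 2 sham, 2 of the 6 h group and 1 each of the 2 latest groups. Il12a, the other subunit of Il12, had both of its windows under a peak in the same 3 libraries, 1 each of sham, 10 min and 1 h. Il16, a chemoattractant for CD4 cells, had 3 (2 at 10 min, 1 at 72 h), and Il22ra1, the Il22-binding chain, had 2, both at 72 h. No interleukin promoter window was under a peak in all 3 libraries of any group.

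Interleukin promoters also held fewer CpGs than most, with a median of 4 per window against 14 for all genes. Ligand windows had a median of 3.5 and receptor windows 7.0. Among windows with 15 or more CpGs, the promoters of Il3ra (35 CpGs), Il4i1b (34), Il6st (33), Il1rap (33) and Il17rb (32) had the most, and none of these 5 was under a peak in any library. Of the 12 interleukin windows in that class 1 was under a peak (8.33%), against 1.57% of 9660 windows of all genes. In the class of 5 to 9 CpGs, where peaks were most frequent over all genes (16.8%), 1 of 20 interleukin windows had one (5.0%). The plot of promoter windows by CpG number shows these shares.

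**Figure D1:**
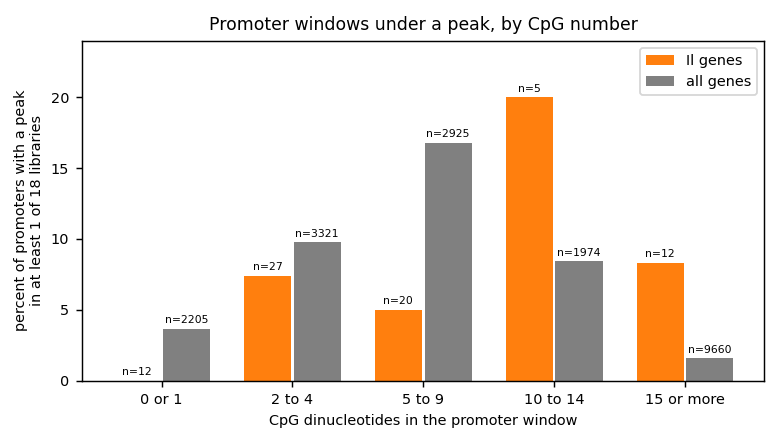
Percent of promoter windows (250 bases before to 50 after a start) under a peak in at least 1 of 18 libraries (vertical axis), by number of CpGs in the window (horizontal axis), for interleukin genes (orange) and all genes (grey), with the number of windows above each bar. All genes peak at 16.8% in the class of 5 to 9 CpGs, while each interleukin bar above 0 rests on 1 or 2 windows.

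Across whole genes, the question was which interleukin genes carry methylated peaks in the heart at all. Each gene was read as its span plus 2000 bases on both sides. A peak in at least 1 library was found at 62 of the 78 genes (79.5%), close to the 78.1% of all autosomal protein-coding genes. Peaks in all 18 libraries were found at 6 of them (7.69%), against 20.1% of all genes. Ligands and receptors differed: 25 of 39 ligands had a peak in any library, and 35 of 36 receptor chains did. The median ligand had a peak in 2 of 18 libraries, the median receptor chain in 10.5 and the median gene in 9. Ligand genes are shorter, with a median window of 10596 bases against 33980 for receptors and 21491 for all genes.

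Window length moved with this difference. Among windows under 10 kb, ligands had a peak in 15.7% of gene-library pairs and all genes in 17.9%. From 10 to 20 kb the shares were 20.7% for 15 ligands, 35.0% for 10 receptors and 38.2% for all genes. From 20 to 50 kb they were 61.1% for 4 ligands, 56.9% for 17 receptors and 57.8% for all genes. At 50 kb or more they were 51.9% for 3 ligands, 71.0% for 9 receptors and 85.4% for all genes. So within a length class ligands stood below receptors in 2 of the 3 classes that hold both, and above them in the class from 20 to 50 kb.

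The 14 ligands with no peak in any library include the early cytokine Il6. The 14 were Il6, Il10, the Il1 receptor antagonist Il1rn, the T helper cytokines Il5, Il13, Il17a and Il21, Il15, Il17c, Il25 and the Il1 family members Il1f5, Il1f6, Il1f8 and Il1f10. Il15 has the longest window of the 14, with 75629 bases. Il1b had a single peak in each of 2 libraries, sham replicate 2 and 10 min replicate 1, covering 8.66% and 8.26% of its window. The only receptor chain without a peak was Il3ra, the Il3-binding chain, whose promoter held 35 CpGs. Il4i1 had none either.

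The ligands with peaks in all 18 libraries were Il1f9, Il18 and Il34. Il1f9 encodes an agonist of the Il36 group of the Il1 family, and its peak crossed the downstream end of the gene (chr2:24193116-24196239, mean score 91.7 ± 22.6, SD, n = 18). Scores are those of the authors; the lowest in every list is 50, and no source states their scale. Between 8.27% (1 h replicate 1) and 21.8% (6 h replicate 2) of the Il1f9 window was under peaks. Il18, a cytokine released in active form by inflammasomes, had its most frequent region within the gene at chr9:50559988-50561426, found in 15 libraries, with a mean score of 75.8 ± 22.3 (SD, n = 15). That region also lies over the gene Tex12, so the peak cannot be given to 1 of the 2 genes. Il34, a ligand of the Csf1 receptor that maintains tissue macrophages, had 1 to 5 peaks in each library. Its most frequent region, chr8:110747704-110748974, was found in 16 libraries with a mean score of 83.6 ± 18.6 (SD, n = 16).

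The receptor chains with peaks in all 18 libraries were Il1r1, Il20ra and Il17rd. Il1r1, the signalling receptor of Il1a and Il1b, held the strongest constant region of the whole set. That region lay 85.5 kb from the 5′ end of the gene span, within the gene (chr1:40306421-40309511), and scored from 127.53 (6 h replicate 3) to 327.8 (10 min replicate 1) with a mean of 202.7 ± 55.5 (SD, n = 18). All 6 groups had it in 3 of 3 libraries, and the score ranges of the groups overlapped. Il20ra, a chain shared by the receptors of Il19, Il20 and Il24, had a region in 17 libraries at chr10:19736112-19737266 (mean score 108.1 ± 30.8, SD, n = 17). Il17rd, an Il17 receptor family member that restrains growth factor signalling, had 1 to 5 peaks in each library spread over several regions. Il10ra, the Il10-binding chain, missed this group by 2 libraries: its region at chr9:45258549-45259713 was found in 16, absent from 1 h replicate 1 and 24 h replicate 3, with a mean score of 96.5 ± 37.3 (SD, n = 16).

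**Figure D2:**
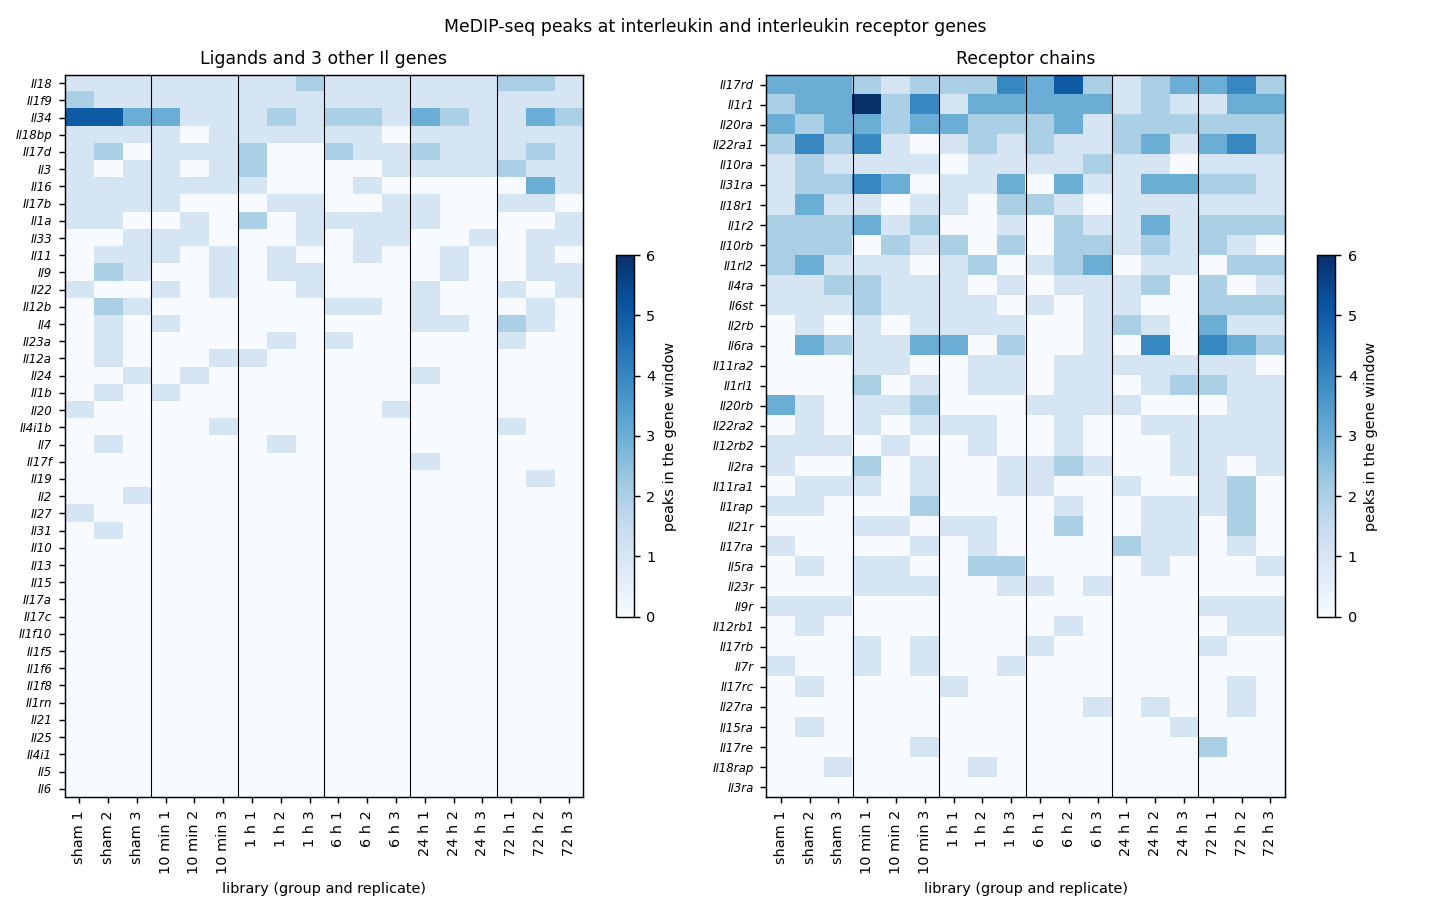
Number of peaks in the window of each interleukin gene (rows: ligands and 3 other genes on the left, receptor chains on the right, ordered by libraries with a peak) in each of the 18 libraries (columns, by group and replicate); darker blue is more peaks. The lower rows of the ligand panel are empty, while 35 of 36 receptor rows hold at least 1 peak.

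Frequent peaks were rarer among merged regions at interleukin genes than among all merged autosomal regions, which include those outside gene windows. Merging the peaks of all libraries gave 177 regions in the 78 windows, 143 of them (80.8%) within a gene span. Of the 177, 2 (1.13%) were found in all 18 libraries, against 5.09% of 148111 autosomal regions. Regions found in at least 9 libraries made up 15.3%, against 25.2% of all. Regions found in 1 library made up 27.7%, close to the 29.2% of all. The 2 constant regions were those of Il1r1 and Il1f9.

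By the percent of window bases under peaks, receptors and ligands both stood below all genes. Over the 18 libraries it had a median of 1.74% for the 78 genes (range 1.24 to 2.84), 1.40% for ligands and 1.83% for receptors, against 2.22% for all genes (range 1.83 to 2.95). The interleukin value stood below that of all genes in 18 of 18 libraries, with ratios from 0.562 to 0.981 and a median of 0.765. Receptors stood above ligands in 14 of 18 libraries by this measure, and in 18 of 18 by the share of genes with a peak. Chemokine and chemokine receptor genes, another set of 57 inflammatory genes, had a median of 2.74%. Signalling genes of the interleukin pathways (49 genes: Jak, Stat, Socs, Myd88, Irak and partner cytokines) had 3.11%, and 8 of them had a peak in all 18 libraries. Windows of leukocyte markers had 0.797%, of cardiomyocyte markers 1.84%, of endothelial markers 2.82% and of fibroblast markers 3.22%.

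The next comparison asked whether methylation at interleukin genes as a group differed with time after the tie. Every comparison below uses the same 3 sham libraries. Values for all groups are given with sham first and then by time from 10 min to 72 h, as mean ± SD with n = 3 each. The percent of interleukin windows under peaks was 2.23 ± 0.567, 1.90 ± 0.545, 1.41 ± 0.192, 1.64 ± 0.284, 1.52 ± 0.375 and 2.16 ± 0.491. The sham values were 1.72, 2.84 and 2.13, and those of the 1 h group were between 1.24 and 1.62. The 1 h libraries lay below all sham libraries, and the other 4 times overlapped sham. All genes did the same: their percent was 1.99 to 2.18 in the 1 h libraries and 2.21 to 2.94 in sham. By the percent under peaks, then, a separation at 1 h is not particular to interleukin genes. The ratio to all genes is given below. The share of the 78 genes with a peak was 43.6%, 41.5%, 33.3%, 33.8%, 35.9% and 45.3%, and the 1 h libraries alone lay below all sham libraries. Over all genes the share was 47.08 to 48.35% in the 1 h libraries and 48.11 to 57.21% in sham, which overlap. The 1 h differences of -0.822 and -10.3 percentage points shrank to -0.182 and -2.14 with peaks at or above the median score, and to -0.292 and -4.27 with lists of equal length. The 6 h difference in share, -9.83, shrank to -2.56 with lists of equal length. Each value was also divided by that of all genes in the same library. This ratio was 0.892 ± 0.0986, 0.857 ± 0.130, 0.680 ± 0.0668, 0.765 ± 0.117, 0.669 ± 0.105 and 0.805 ± 0.118. By the ratio, the libraries of 2 groups (1 h, 24 h) lay below all sham libraries. With 3 libraries against 3, an exact test cannot give a p below 0.1, and no p is given for these lists, whose members were chosen with earlier results known.

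For ligand genes the ratio to all genes was, in the same order, 0.918 ± 0.0996, 0.716 ± 0.0645, 0.545 ± 0.0269, 0.630 ± 0.102, 0.649 ± 0.277 and 0.701 ± 0.238. No library of the 10 min, 1 h or 6 h groups reached the lowest sham value of 0.818, and the 2 later groups overlapped sham. The receptor ratio was 0.874 ± 0.109, 0.919 ± 0.149, 0.728 ± 0.107, 0.833 ± 0.152, 0.669 ± 0.176 and 0.846 ± 0.0865, and it overlapped sham at every time. Whether the course of ligands differs from that of receptors was not tested. The ratio was also read for marker genes of 4 cell types. For 4 endothelial markers it overlapped sham at every time. For 4 fibroblast markers it was 0.961 to 1.17 in sham, 1.32 to 1.70 at 10 min and 1.23 to 2.02 at 1 h. At 6 h it was 1.255 to 1.452 and at 24 h 1.46 to 1.90. These 4 times stood apart from sham, and 72 h overlapped it. Of these 4 markers, Dcn had a peak in 1 library. Leukocyte and cardiomyocyte markers each stood apart from sham at 1 time. The ratio of leukocyte markers was 0.211 to 0.344 in sham and 0.539 to 0.688 in the 1 h libraries, and the other 4 times overlapped sham. Of these 10 markers, Cd68, Lyz2, S100a8 and S100a9 had no peak in any library, and Ptprc had one in 1 library. The ratio of cardiomyocyte markers was 0.668 to 0.878 in sham and 1.00 to 1.52 in the 72 h libraries, with the other 4 times overlapping sham, and each of these 10 markers had a peak in at least 1 library. The part of these 4 cell types in the interleukin values was not tested. With Il34 left out, a setting chosen after seeing the data, the ligand ratio was 0.720, 0.651, 0.511, 0.564, 0.546 and 0.642, and the 1 h libraries alone lay apart from sham.

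**Figure D3:**
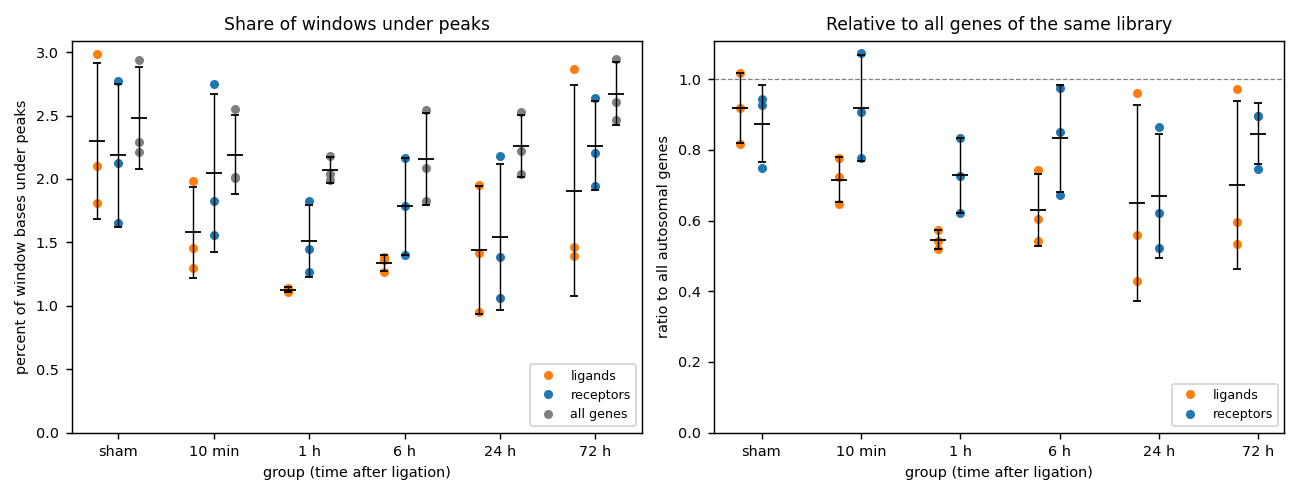
Left: percent of window bases under peaks in each library (points) for ligands, receptors and all genes, by group, with mean and SD (bars, n = 3). Right: ligand and receptor values divided by that of all genes in the same library, with a dashed line at 1; ligand points at 10 min, 1 h and 6 h sit below all 3 sham ligand points, and receptor points overlap sham at each time.

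Single genes were then compared with limma on the percent of window under peaks, over 14333 genes with a peak in at least 3 libraries, 50 of them interleukin genes (17 ligands, 32 receptors and Il18bp). Il9r, the Il9-binding receptor chain, was the only interleukin gene past the threshold of 0.05 on the adjusted p. It was 1 of the 6 genes called at each of the 4 times up to 24 h (0.0419% of genes tested), and 1 of the 8 called for the 15 MI libraries against sham (0.0558%). Genes called as lower than sham made up 0.0349%, 0.0419%, 0.0349% and 0.0209% at these 4 times, 0.014% at 72 h and 0.0419% for the 15 MI libraries. Over the 6 groups together Il9r was 1 of 30 genes called (0.209%). At 72 h 15 genes were called (0.105%) and no interleukin gene was, with 4 of the 50 (8%) at an unadjusted p under 0.05, against 6.9% of all genes tested. The unadjusted counts at the other times were 4, 4, 4 and 3 of 50, or 6 to 8%, against 4.94 to 5.83% of all genes tested. From the first to the last time, 25, 31, 34, 33 and 24 of the 50 genes had a value lower than sham. As shares these are 50%, 62%, 68%, 66% and 48%, against 58.6%, 63.6%, 59.1%, 55.9% and 41.6% of all genes tested. In the same order the median difference of the 50 from sham was -0.01, -0.44, -0.42, -0.83 and 0.02 percentage points, against -0.25, -0.41, -0.29, -0.17 and 0.22 over all genes tested.

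Il9r had 1 peak in each of 6 libraries and none in the other 12. The peaks covered 3.58%, 7.62% and 7.54% of its window in sham, 0% in all 12 libraries from 10 min to 24 h, and 5.30%, 3.66% and 3.74% at 72 h. All 6 fell in 1 region within the gene, chr11:32192771-32194468, 11.7 kb from the 5′ end of the gene span, with no other annotated gene within 2000 bases. The printed Il9r promoter lies upstream of it and carried no peak. Scores were 53.6, 73.9 and 63.1 in sham and 62.4, 50.4 and 60.1 at 72 h. The peak was thus called in every sham mouse, in no mouse at the 4 earlier times and in every mouse at 72 h. Each group holds different mice, and an uncalled peak may lie just under the threshold of the authors' caller. The share of all regions with this pattern is not given here. Of these 6 scores 5 lay under 72.1, the pooled median of the 18 lists.

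The Il9r difference from sham was -6.25 percentage points (SE 0.857) at each time from 10 min to 24 h, with limma adjusted p = 0.0234, 0.0176, 0.0234 and 0.0117. At 72 h it was -2.01 (SE 0.857, limma adjusted p = 0.695). For 15 MI libraries against sham it was -5.40 (SE 0.664, limma adjusted p = 0.00517), and over the 6 groups the adjusted p was 0.00588. The 12 libraries at exactly 0 have no spread, and they lower the spread that limma pools over the 6 groups. With only the 2 groups compared in each fit, the limma adjusted p was 0.424 to 0.502 from 10 min to 24 h. The two-sided exact permutation test of 15 against 3 gave p = 0.0049 for Il9r and an adjusted p of 0.978, where the smallest p possible is 0.00123. Without sham replicate 2 the adjusted p was 0.0883 to 0.169 at these times and 0.074 for the 15 MI libraries. Without sham replicate 3 it was 0.0572 to 0.0716 at these times. Leaving out any 1 of the 3 libraries of the time itself also ended the call at that time, with adjusted p from 0.0545 to 0.114. The 10 min call was lost as well without 1 h replicate 1 or 2, and the 6 h call without any 1 of the 10 min libraries or 1 h replicate 1 (0.053 to 0.0548). Among single libraries left out, sham replicate 2 alone ended the call for the 15 MI libraries. A flank of 5000 bases ended every Il9r call (adjusted p = 0.157 to 0.338 up to 24 h, 0.157 for the 15 MI libraries and 0.0672 over the 6 groups). With covered length as a covariate the adjusted p was 0.0663, 0.148 and 0.0626 up to 6 h and 0.0575 over the 6 groups. The Il9r region was no longer counted as lost with peaks at or above the median score or with lists of equal length.

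**Figure D4:**
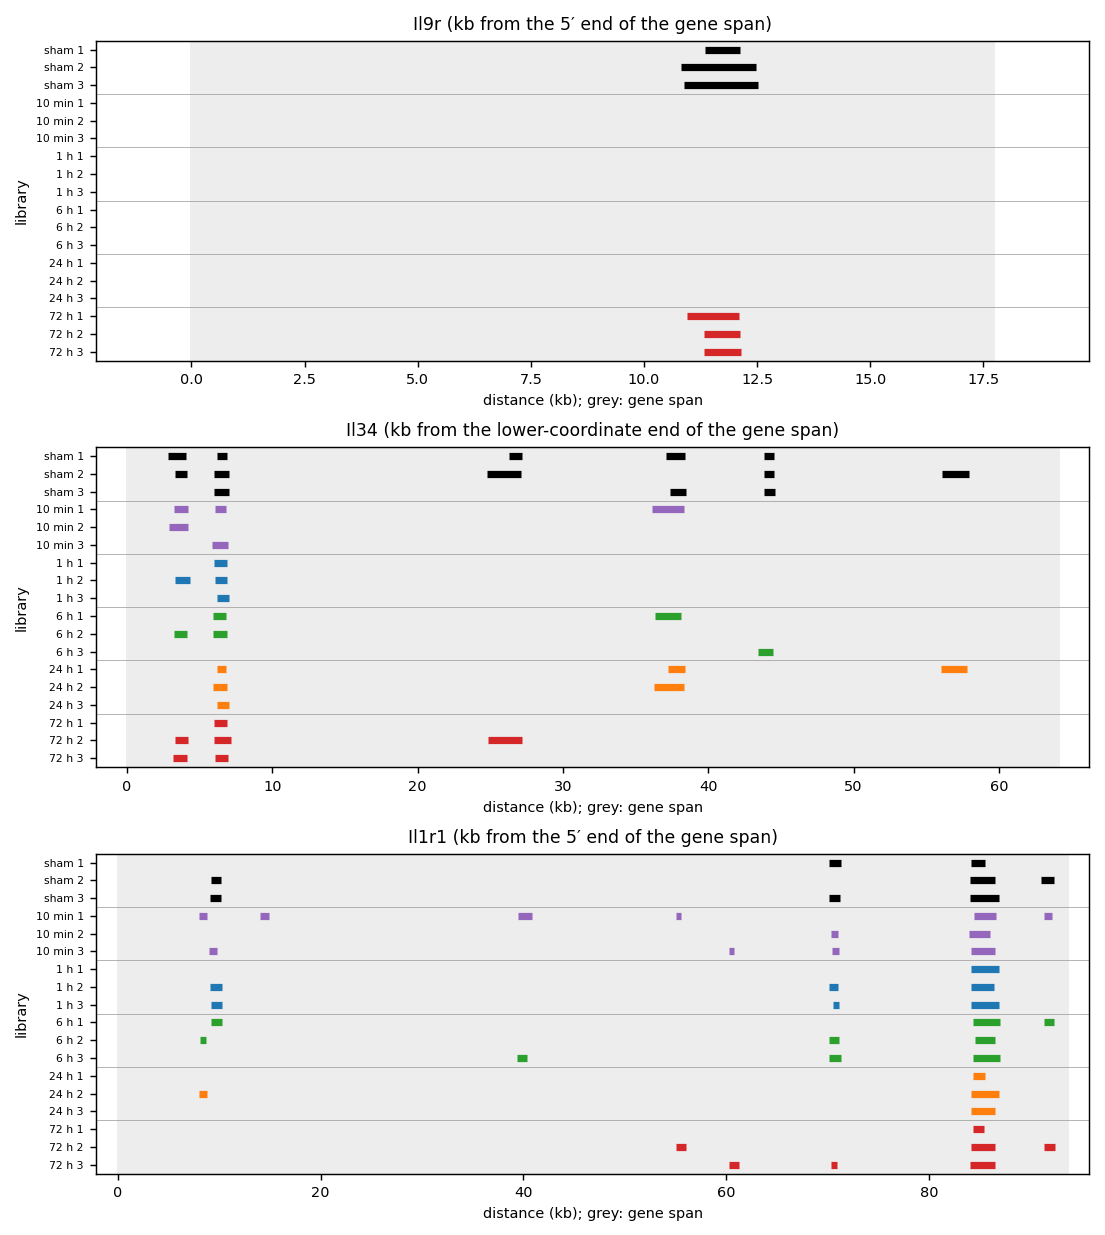
Position of every peak (bars) along the windows of Il9r, Il34 and Il1r1, in kb from one end of the gene span (grey), for the 18 libraries (rows). The Il9r peak appears in the 3 sham and the 3 72 h libraries alone, the Il34 peak near 44 kb in 3 sham libraries and 6 h replicate 3, and the Il1r1 peak near 85 kb in all 18.

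Regions were also called directly: lost where 3 of 3 sham and 0 of 3 libraries of a time had a peak, gained in the opposite case. At 10 min 2 of the 177 interleukin regions were lost (background 0.627% of all regions) and 1 gained (0.218%). At 1 h 2 were lost (0.55%) and 0 gained (0.223%). At 6 h 2 were lost (0.707%) and 1 gained (0.203%). At 24 h 4 were lost (0.524%) and 1 gained (0.394%). At 72 h 2 were lost (0.401%) and 2 gained (0.724%). As shares of 177, the counts of 1, 2 and 4 regions are 0.565%, 1.13% and 2.26%. A single region is as large as many of these background shares, so the counts are too small to be read as apart from them. For the 15 MI libraries 2 regions were lost (0.255%; here a peak in all 3 sham libraries and no more than 3 of 15 others), those of Il9r and Il34, and 0 gained (0.0378%). These calls fell on 9 genes, 2 ligands and 7 receptor chains.

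Among ligands, Il34 had the lost region that spanned most times. It lies within the gene at chr8:110785257-110786398 and scored 62.3, 61.9 and 60.1 in sham, 57.1 in 6 h replicate 3, and was absent from the other 14 libraries. The region was lost in all groups but 6 h. Over its whole window Il34 had 5, 5 and 3 peaks in the sham libraries. The 10 min libraries had 3, 1 and 1, those of 1 h had 1, 2 and 1, and those of 6 h had 2, 2 and 1. The 24 h libraries had 3, 2 and 1, and those of 72 h had 1, 3 and 2. They covered 7.07%, 10.0% and 4.16% in sham against 1.21% to 2.75% at 1 h. All libraries of the 1 h and 6 h groups lay below the sham libraries, and the other times overlapped them. Il34 did not pass the test: for the 15 MI libraries the difference was -4.13 percentage points (SE 1.31, limma adjusted p = 0.737).

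Il18 gained a region at 72 h, within the gene at chr9:50563994-50564966. Its scores there were 56.7, 115.7 and 52.3, and it was also found in 1 library each of 10 min (71.0), 1 h (55.7) and 24 h (50.1). Il18 had at least 1 peak in every library, so the gain added to a gene that already had one.

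Among receptor chains, 4 gained a region. Il23r, the chain specific to Il23, gained one at 10 min (chr6:67469886-67470894, scores 60.2, 66.3 and 68.9), which 1 library at 1 h and 2 at 6 h also had. It was the only peak region of Il23r in any library, so the gene itself counted as gained at 10 min, 1 of 78 against 0.198% of all genes. Il17ra, the shared chain of the Il17 receptors, gained one at 24 h (chr6:120474998-120476384) with scores of 62.1, 53.1 and 56.6, found in no library of another group. The Il17ra window was 9.04%, 4.84% and 4.12% covered at 24 h, against 3.85%, 0% and 0% in sham. Those ranges did not overlap, and the difference of 4.72 percentage points (SE 1.63) did not pass (limma adjusted p = 0.978).

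The other two were Il2ra and Il6ra. Il2ra, the alpha chain of the Il2 receptor, gained one at 6 h (chr2:11681799-11683280, scores 54.6, 54.2 and 62.9). It was also found in 2 libraries at 10 min, 1 at 1 h and 1 at 72 h, and it overlaps the long noncoding RNA gene Gm39760. Il6ra, the Il6-binding chain, gained one at 72 h (chr3:89885368-89886735) with scores of 52.3, 52.8 and 52.7, all near the floor of 50. It was found in 24 h replicate 2 as well (82.5) and overlaps the long noncoding RNA gene Gm46811. Il6ra had peaks in 12 libraries, and its coverage was 0%, 5.25% and 4.77% in sham and 6.04%, 7.22% and 5.18% at 72 h, which overlap.

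Besides Il9r, 2 receptor chains lost a region. Il10rb, a signalling chain shared by Il10 and Il22, lost one in the 24 h and 72 h groups (chr16:91420625-91422001). It scored 53.3, 72.8 and 69.0 in sham and was present in 5 of 9 libraries from 10 min to 6 h. Il22ra1 lost one in the 6 h and 24 h groups (chr4:135741238-135743273, scores 57.2, 76.5 and 54.0 in sham), and 2 of 3 libraries at 72 h had it (63.8 and 106.7). Counting all its regions, Il22ra1 had a peak in 17 of 18 libraries.

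**Figure D5:**
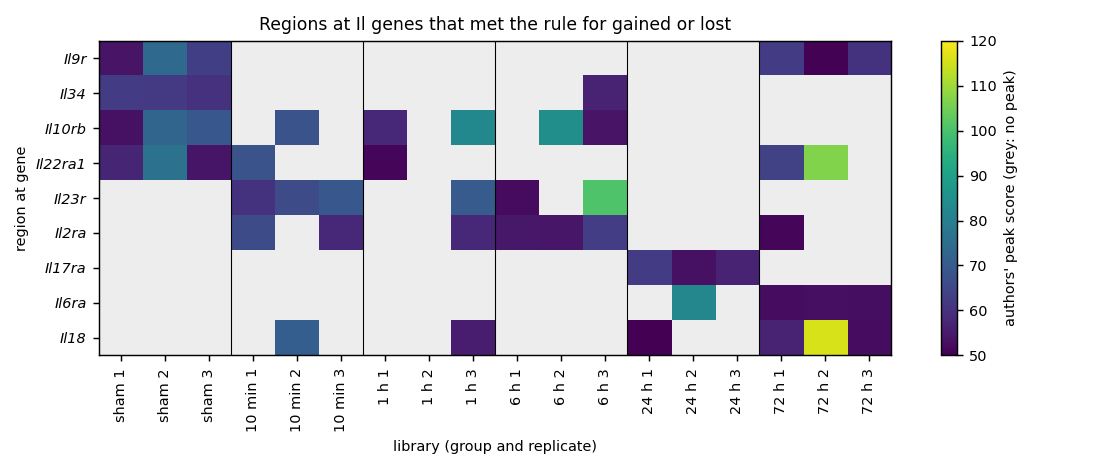
Authors' peak score (colour; grey where there was no peak) in each library for the 9 interleukin gene regions called lost or gained at any time. Il9r and Il34 are filled in all 3 sham libraries, Il17ra in the 3 24 h libraries alone, and Il6ra and Il18 in all 3 libraries at 72 h.

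Counting a gene by any peak in its window gave few further calls. Il9r was the 1 interleukin gene lost in the first 3 groups (background 0.537%, 0.6% and 0.697% of all genes), and it was joined by Il16 at 24 h (0.503%). Il11ra2, a copy of the Il11 receptor, was gained at 24 h (0.232%), and Il1rl1, the Il33 receptor, at 72 h (0.644%). The mouse has near-identical copies of the Il11 receptor gene, so reads of Il11ra2 could be shared with them, and its value is uncertain. Its peaks belong to a region downstream of the gene (chr4:42651996-42653740) that lies over Ccl27b, and sham replicate 2 had a peak of this region as well (52.8), outside the Il11ra2 window. The call ended with no flank, with a flank of 5000 bases, with 50% overlap and with peaks at or above the median score. None was lost at 72 h (0.213%), and none was gained in the 1 h (0.14%) or 6 h (0.155%) groups, and for the 15 MI libraries Il9r alone was lost (0.121%) and none gained (0.0339%).

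Il1rl1 had no peak in sham and a peak in 2 of 3 libraries at each time from 10 min to 24 h and in 3 of 3 at 72 h. Its coverage was 0% in all 3 sham libraries and 3.25%, 1.25% and 2.79% at 72 h. The difference at 72 h was 2.43 percentage points (SE 0.822) and did not pass (limma adjusted p = 0.597). Its ligand Il33, an alarm signal freed from damaged cells, had peaks in 9 libraries, 1 of them sham. Each group had it in 1 or 2 libraries.

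The Il6 family shared chain Il6st (gp130) had peaks in 14 libraries. The sham libraries had 0.994%, 1.97% and 1.20% of its window covered. The 24 h libraries had 1.10%, 0% and 0%, and those of 72 h had 3.95%, 2.69% and 5.53%. The 72 h values lay above all sham values, and the difference of 2.67 percentage points (SE 1.02) did not pass (limma adjusted p = 0.637). Il11, an Il6 family ligand tied to fibrosis, had a peak in 8 libraries, 2 of them sham and at most 2 in any group.

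Of the 49 signalling and partner genes, 43 had a peak in at least 1 library and 37 entered the limma fit. None passed at any time, with 1 to 5 (2.7 to 13.5%) at an unadjusted p under 0.05, against 4.94 to 6.9% of all genes tested. Tab1, an adaptor of the kinase Map3k7 downstream of the Il1 receptor, was the 1 gene of the 49 gained, at 72 h, where 0.644% of all genes were. No sham or 10 min library had a peak there, and the next 3 groups had it in 1, 1 and 2 libraries before all 3 did at 72 h. None of the 49 was lost at any time, where 0.213 to 0.697% of all genes were.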

How the data were processed

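MeDIP-seq libraries of myocardial tissue from 18 mice (6 groups of 3) were compared, per the labels. The authors deposited 1 list of peaks per library with a score for each peak, so peaks were called library by library; Bowtie2, MACS2 and the build mm10 are named in the submitters' processing notes, and versions, options and use of an input are not given in the sources used here. The score that the authors deposited has a floor of 50 and was used to describe and filter peaks.

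Gene positions came from the RefSeq table of GRCm38.p6, the assembly that mm10 denotes. Peaks were assigned to gene spans plus 2000 bases on both sides, and peaks of all libraries sharing at least 1 base were merged into 148111 autosomal regions. The percent of each window under peaks was fitted with limma 3.58.1 (R 4.3.3) over all 6 groups for genes with a peak in at least 3 libraries, two-sided, with Benjamini-Hochberg adjustment over 14333 genes. The fit was tested on values shuffled between libraries within each gene, with known shifts added to the 72 h group. Of genes shifted by 6 SD it recovered 97 of 100, and of those shifted by 3 SD 24 of 100. There were 6 false calls over 14333 genes, for 72 h against sham. Shuffling breaks up groups that lie wholly at 0, so this does not cover a pattern like that of Il9r. Regions or genes were called gained or lost at 3 of 3 libraries against 0 of 3; for the 15 MI libraries, gained needed at least 12 of 15 and lost at most 3 of 15.

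Named genes were a preset list of 12 (Il1b, Il1rn, Il1r1, Il1rl1, Il33, Il6, Il6ra, Il6st, Il10, Il10ra, Il11, Il18) and every interleukin gene with peaks in all 18 libraries, with a gained or lost region, or past the limma threshold; Il16, Il11ra2, Il3ra, Il12a, Il12b and Tab1 follow from the other counts. The members and lists were chosen with earlier results of these data known. Each library is from a separate mouse per the labels. No 2 libraries were copies: at most 0.00691% of peaks were identical between a pair. Alternatives were score, flank, overlap, filter, covariate, replicate block, 2-group fits, log2(percent + 1), a permutation test and leaving out each library. Exons, introns and sequence under peaks were not analysed here.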

Additional observations from a re-analysis of the deposited data

Results flagged for a closer look

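Differences between times after the tie stood out for 3 receptor genes and for the receptor chains as a group: all libraries of one time exceeded the mean of sham, and all those of another time fell short of it. None of these differences was tested itself. The rule was read for 22 named interleukin genes and 6 list measures, over every pair of times. How often all genes meet it was not counted, so these flags have no background. Il17ra was among the named genes for its region gained at 24 h, so its flag is not separate from that call.

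The share of receptor chains with a peak was 64.8% at 72 h and 47.2% at 1 h, a difference of 17.6 percentage points around a sham mean of 55.6%. The share over all genes was 55.9%, 47.9% and 52.0% in the same groups. The Il17ra window was 6.0% covered at 24 h and 0% at 6 h, with a sham mean of 1.28%, a difference of 6.0 percentage points. For Il6ra the values were 6.15% at 72 h and 0.717% at 6 h, with 3.34% in sham, a difference of 5.43. For Il6st the values were 3.06% at 10 min and 0.365% at 24 h, with 1.39% in sham, a difference of 2.69; the difference between 72 h (4.06%) and 24 h was 3.69. Il6ra and Il6st are the binding and the signalling chain of the Il6 receptor; at 24 h, where Il6st was low, Il6ra ranged from 0% to 8.19%.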

How the results depend on the processing

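Counts here run from 10 min to the 72 h group in order of time unless said otherwise, and the cause of a change was not tested except where the setting itself gives it. With peaks scored at or above the pooled median only, the share of interleukin genes with a peak differed from sham by -2.14 percentage points at 1 h and by 8.97 at 72 h, and the percent under peaks by -0.182 at 1 h. With an equal number of top-scoring peaks per list the share differed by -4.27 (1 h) and -2.56 (6 h), and the percent by -0.292 (1 h) and -0.063 (6 h). The 1 h differences were smaller in both settings. The 72 h difference in share was larger with the score filter than the 1.71 found with all peaks.

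Region calls were few and moved with the settings. With high-scoring peaks, lost regions numbered 0, 0, 1, 1 and 1, and gained ones 0, 0, 0, 0 and 1, with 0 lost for the 15 MI libraries. With equal lists, lost regions numbered 0, 0, 0, 1 and 1, gained ones 0, 1, 0, 1 and 1, and for the 15 MI libraries 0 were lost and 1 gained. With at least 50% overlap, lost regions numbered 1, 1, 0 and 2 up to 24 h and 1 for the 15 MI libraries. Where the count of interleukin genes lost or gained by any peak moved with the settings, it fell to 0 or 1. With high scores 0 were gained at 10 min, 24 h and 72 h. In that setting 0 were lost at 10 min, 1 h and over MI, and 1 at 24 h. With equal lists 0 were lost in the first 3 groups and over MI, 1 lost at 24 h and 0 gained at 72 h. With 50% overlap or with no flank 0 were gained at 24 h. With a flank of 5000 bases 0 were gained at 10 min and 24 h, 1 was lost at 24 h and 0 over MI.

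By limma, Il9r passed in 5, 5, 5, 6 and 1 of 14 alternatives at the 5 times, in 23 of 26 for the 15 MI libraries and in 23 of 25 over the 6 groups. The number of all genes called, and of interleukin genes called (0 unless said), moved as follows. With high scores it was 1, 2, 1 and 1 up to 24 h, 1 over MI and 16 over the 6 groups. With equal lists it was 2, 2 and 2 from 1 h to 24 h, 6 at 72 h, 3 over MI and 14 over the 6 groups, and 0 interleukin genes at 10 min. With a flank of 5000 bases it was 3 at 24 h and 3 over MI, with 0 interleukin genes at each of the first 4 times, over MI and over the 6 groups. With no flank it was 3, 3 and 3 up to 6 h and 17 over MI, with Il9r still past the threshold. With genes in at least 9 libraries, which leaves Il9r out, it was 0, 1, 0, 0 and 0, then 1 over MI and 4 over the 6 groups. With covered length as a covariate it was 3, 3 and 2 up to 6 h, with 0 interleukin genes there and over the 6 groups. With only the 2 groups compared it was 17, 21, 22, 20 and 27. The exact permutation test called 0 of all genes over MI, with 688 at an unadjusted p under 0.05 (2 interleukin genes).

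Replicate numbers are not said to pair the mice. Same-numbered libraries of different groups had a mean correlation of 0.00472 (range -0.0611 to 0.0743, 45 pairs), none over 0.1. For other numbers the mean was -0.00235 (range -0.0754 to 0.0719, 90 pairs), and 9 of 18 libraries correlated best with their own number. These correlations do not describe how alike the whole lists of 2 mice are, since 20.1% of all genes had a peak in all 18 libraries. Correlations this small cannot decide whether the numbers stand for a pairing or a shared batch. With the replicate block, all genes called numbered 3 at 10 min and 5 over MI, and interleukin genes 0 at each of the first 4 times and 1 over MI and over the 6 groups.

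Libraries of the groups compared were left out 1 at a time, so a time against sham left out those of sham and of that time. The share of interleukin genes with a peak, minus that of sham, ran between -5.13 and 2.35 (10 min), -12.8 and -5.77 (1 h), -12.4 and -5.34 (6 h), -10.3 and -3.21 (24 h), and -1.28 and 6.20 (72 h). The percent under peaks ran from -0.632 to -0.0227, -1.08 to -0.515, -0.848 to -0.288, -0.963 to -0.403 and -0.347 to 0.238 in the same order. Gained regions ran from 1 to 7, 0 to 3, 1 to 2, 1 to 3 and 2 to 5, and lost regions from 2 to 6, 3 to 5, 2 to 7, 4 to 10 and 2 to 7, with 0 to 1 gained and 1 to 5 lost over MI. Genes gained ran from 1 to 3, 0 to 2, 0 to 2, 1 to 3 and 1 to 3, and genes lost from 1 to 2, 1 to 3, 1 to 3, 2 to 4 and 0 to 0, with 0 to 1 lost over MI. A call needs fewer libraries once 1 is left out, which by itself raises these counts. All genes called by limma ran from 2 to 11, 3 to 7, 2 to 9, 5 to 15 and 15 to 30, from 2 to 16 over MI and from 22 to 39 over the 6 groups, and interleukin genes from 0 to 1 in each comparison with sham and 1 to 1 over the 6 groups. At 72 h the 1 was Il9r without sham replicate 1 (limma adjusted p = 0.0279). Leaving out a library of another time moved some limma counts past these ranges. Without 72 h replicate 1, all genes called numbered 10 at 1 h and 11 at 6 h. Without 1 h replicate 2, they numbered 13 at 72 h. The depth behind the lists is unknown, so an absent peak may lie just under the threshold of the authors' caller.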

Other observations

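The 5 genes with such symbols on the X chromosome were outside the comparisons. Il1rapl2, an accessory protein family member with a window of 1280 kb, had 88 peaks over the libraries and at least 1 in all 18, and Il1rapl1 (1380 kb) had 15 peaks in 11 libraries. Il2rg, the common gamma chain of the receptors for Il2, Il4, Il7, Il9, Il15 and Il21, had no peak in any library, nor did both Il13 receptor chains on this chromosome, Il13ra1 and Il13ra2. Il2rg has a window of 7.87 kb, and the windows of Il13ra1 and Il13ra2 are 63.2 and 49.7 kb.

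The 3 most frequent flank regions of these genes lie over neighbouring genes. The region downstream of Il18bp (chr7:102013143-102014617, 16 libraries, mean score 97.1) lies over Numa1, and the one beside Il10rb (chr16:91403368-91404549, 16 libraries, mean score 89.4) lies over the interferon receptor gene Ifnar2. The region downstream of Il11ra2 (chr4:42651996-42653740, 14 libraries) lies over the chemokine gene Ccl27b and was found in 1 of 3 sham libraries and 13 of 15 MI libraries.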
